A study of Mus musculus with 5 samples.

Results

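Collagens are the fibre and sheet proteins of the extracellular matrix, and their transcripts were read here in mouse mesenchymal stem cells with and without TSG-6. Genes were taken by symbol, Col followed by a chain number, the letter a and another number. This gave 27 of the 12621 genes in the table. They comprised 10 fibrillar, 7 network-forming, 3 FACIT (fibril-associated, with interrupted triple helices) and 3 beaded-filament chains, together with 1 transmembrane chain, 1 multiplexin, 1 anchoring-fibril chain and 1 further chain. All 27 passed the filter on low values, and collagen genes outside the table were not analysed here. The knockout lacked TSG-6, a secreted hyaluronan-binding protein encoded by Tnfaip6, and was represented by 3 libraries named C1, C2 and SE. The wild type was represented by 2 libraries named C1 and SE. All samples carried the same strain label, Balb/c (C.129S6), and the labels give no treatment, time or age, no account of the allele and no meaning for the suffixes C and SE. The series' design text speaks of 2 biological replicates for each cell type, and no label ties a library to an animal or culture, and each p-value therefore reflects only how these libraries vary, which may be technical.

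A collagen molecule is a triple helix of chains that are hydroxylated, folded and exported by dedicated enzymes and chaperones, trimmed outside the cell and crosslinked. Fibrillar chains build the ropes of skin, tendon, bone and cartilage, collagen IV builds the sheet of basement membranes, FACIT chains sit on fibril surfaces, and collagen VI forms fine beaded filaments around cells. Stromal cells of marrow and other connective tissues are a main source of types I, III, V and VI, while types II, X and XI mark cartilage.

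Values are normalised counts, which are reads per gene scaled by the authors to the size of a counts-per-million value, and levels of different genes are compared only after division by exon length. Recovered reads numbered 13605555 to 26658725 per library, and the SE library was the shallower in each genotype. In the knockout C1, C2 and SE libraries Tnfaip6 had normalised counts of 1.65, 2.38 and 1.36, against 6.04 and 3.21 in wild-type C1 and SE. The knockout libraries were all below the wild-type ones, but at a limma adjusted p of 0.0578 they were not called, and the deleted part of the gene is not given. The SE libraries stood apart from the C libraries, with 32.8% of all tested genes differing between the suffixes in a model that also held genotype. That figure pools the genotypes and was not taken within each. Of 10 mesenchymal stromal markers, 9 were in the table and their summed normalised counts ran from 1674 to 2887 in the knockout and from 2292 to 2624 in the wild type, with Itgb1 at 1035 to 1431 in the knockout and 1047 and 1335 in the wild type making up much of each sum. The other markers went both ways. Nt5e (CD73) and Alcam were at most 0.946 in every knockout library. The knockout means of Cd44 and Ly6a were 9.89-fold and 9.59-fold lower (limma, adjusted p = 0.000254 and 0.00263), and that of Pdgfrb was 4.61-fold higher without passing the test (adjusted p = 0.0550). Of 4 endothelial markers 0 were in the table. Of 6 leukocyte markers Cd14 and Cd34 were, summing to 11.3 to 14.0 in the knockout, where Cd34 had no read, and to 198 to 237 in the wild type. Of 6 epithelial and mesothelial markers only Msln was, at most 0.189 in the knockout and 277 and 345 in the wild type. The Schwann marker S100b, 1 of 4, had 5.64 to 7.15 in the knockout and 1.61 to 2.27 in the wild type. Adipocyte markers (4 of 4 in the table) summed to 4140 to 10074 in the knockout and to 45.2 to 67.2 in the wild type. Smooth muscle markers (4 of 5) summed to 3097 to 6604 in the knockout and to 49.2 to 65.3 in the wild type. The part of such cell states in the collagen differences was not tested, and in bulk RNA a change in the share of cells of a type and a change in RNA per cell cannot be told apart.

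Collagen transcripts took a larger share of the knockout libraries within each suffix. The 27 chains held 0.644%, 0.737% and 3.47% of the summed normalised counts in knockout C1, C2 and SE, against 0.180% and 0.655% in wild-type C1 and SE. Knockout SE stood far above every other library, and the knockout C libraries lay close to wild-type SE, so the groups overlapped. Without Col1a1 and Col1a2 the shares were 0.358%, 0.501% and 1.28% in the knockout and 0.175% and 0.634% in the wild type. The leading chain per kilobase of exon also differed between the genotypes. Col6a1 led in knockout C1 and C2 with 27.8% and 38.5% of the collagen total, and Col1a1 led in knockout SE with 43.1%. In the wild type Col3a1 led both libraries, with 33.7% in C1 and 40.8% in SE.

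**Figure D1:**
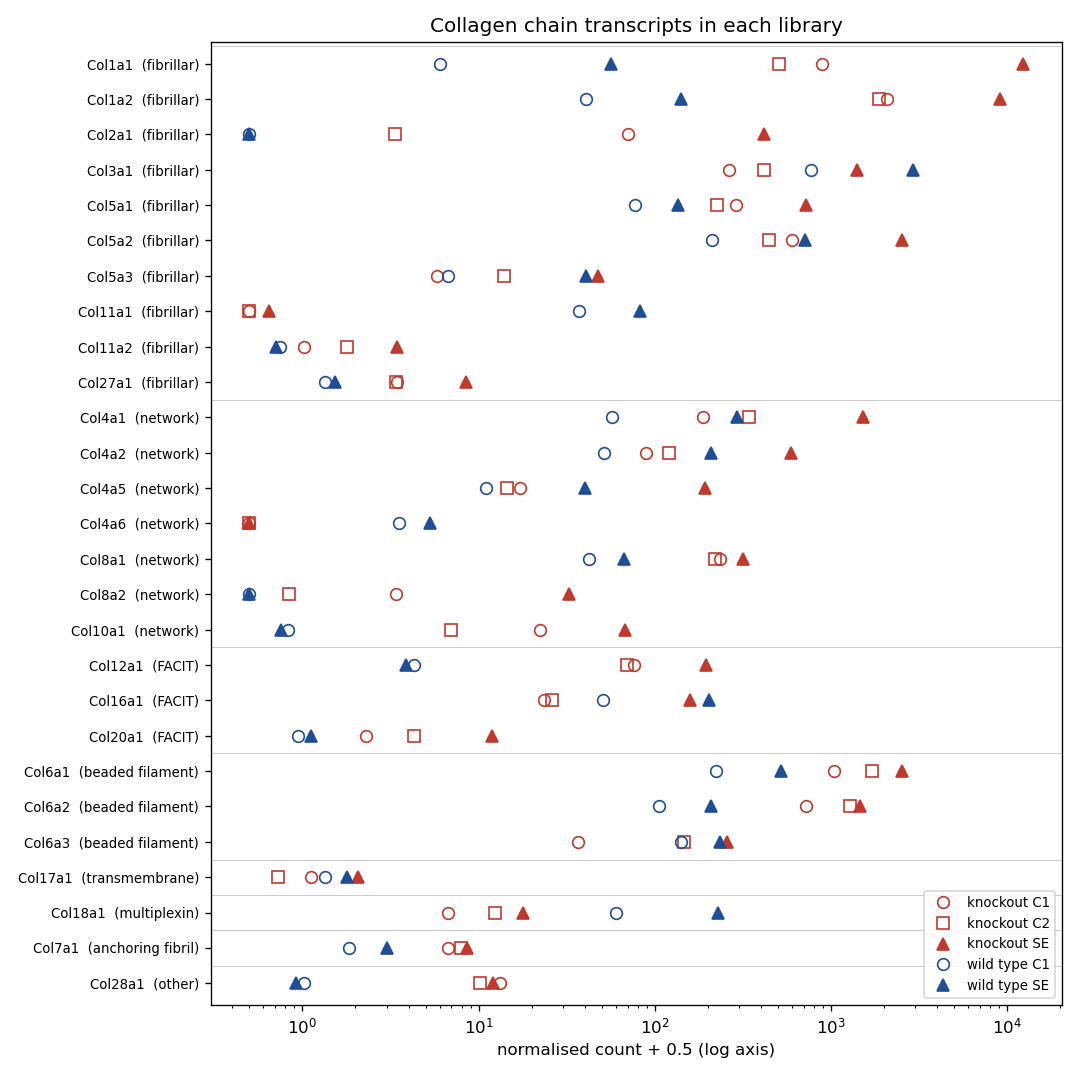
Normalised count plus 0.5 (log axis) of the 27 collagen chains, grouped by class, with 1 symbol for each of the 3 knockout and 2 wild-type libraries and triangles for SE. Col1a1 and Col1a2 lie to the right in every knockout library, whereas Col11a1, Col4a6 and Col18a1 lie to the left.

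Fibrillar chains held 50.9%, 34.2% and 72.3% of the collagen total per kilobase in knockout C1, C2 and SE and 50.6% and 57.4% in wild-type C1 and SE. Beaded-filament chains held 38.3%, 54.9% and 17.8% in the knockout and 32.4% and 22.3% in the wild type. Network chains kept to a narrow range, from 8.92% to 9.53% in the knockout and from 9.80% to 11.6% in the wild type. FACIT chains held 0.878% to 1.03% in the knockout and 3.36% to 4.15% in the wild type, without overlap. Their summed counts per kilobase were not lower in the knockout within either suffix. They were 8.74, 9.07 and 38.3 in knockout C1, C2 and SE, against 7.76 and 30.4 in wild-type C1 and SE. The smaller share thus went with a larger collagen total.

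**Figure D2:**
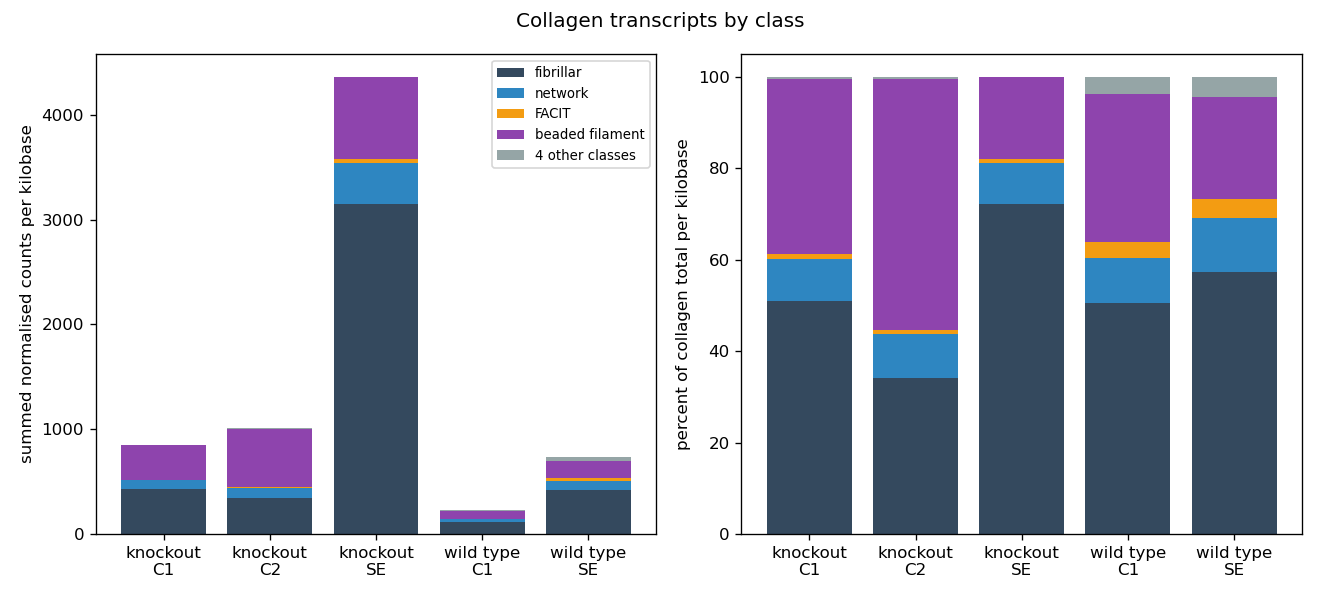
Summed normalised counts per kilobase of exon (left) and the same as percent of the collagen total (right) in the 3 knockout and 2 wild-type libraries, stacked by class. Knockout SE carries a total of 4362 per kilobase, against 851 and 1008 in knockout C1 and C2 and 231 and 733 in wild-type C1 and SE.

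The comparison of knockout with wild-type cells addressed how the transcriptome differs when TSG-6 is lacking. Of the 27 chains, 13 rose and 3 fell in the knockout and 11 did not pass the test (limma, adjusted p under 0.05 over all genes tested), where 34.3% of all tested genes were called, 17.2% higher and 17.1% lower. The 13 that rose were Col1a1, Col1a2, Col2a1, Col5a1, Col27a1, Col8a1, Col10a1, Col12a1, Col20a1, Col6a1, Col6a2, Col7a1 and Col28a1, and the 3 that fell were Col11a1, Col4a6 and Col18a1. The median log2 fold change was 1.71 over the collagens and -0.09 over all genes tested. Values of the genotypes did not overlap for 15 chains that were above the wild type, where 28.0% of all tested genes were, and for 3 that were below it, where 30.7% were. With the suffix as a further term of the model, 19 chains were higher and 5 lower, against 60.6% of all tested genes called, 28.3% higher and 32.3% lower. Without wild-type C1 7 of 25 tested chains were called, where 14.5% of all tested genes were, and without wild-type SE 10 of 24, where 14.0% were. Col11a1 and Col4a6 did not reach the filter on low values in either of these fits.

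**Figure D3:**
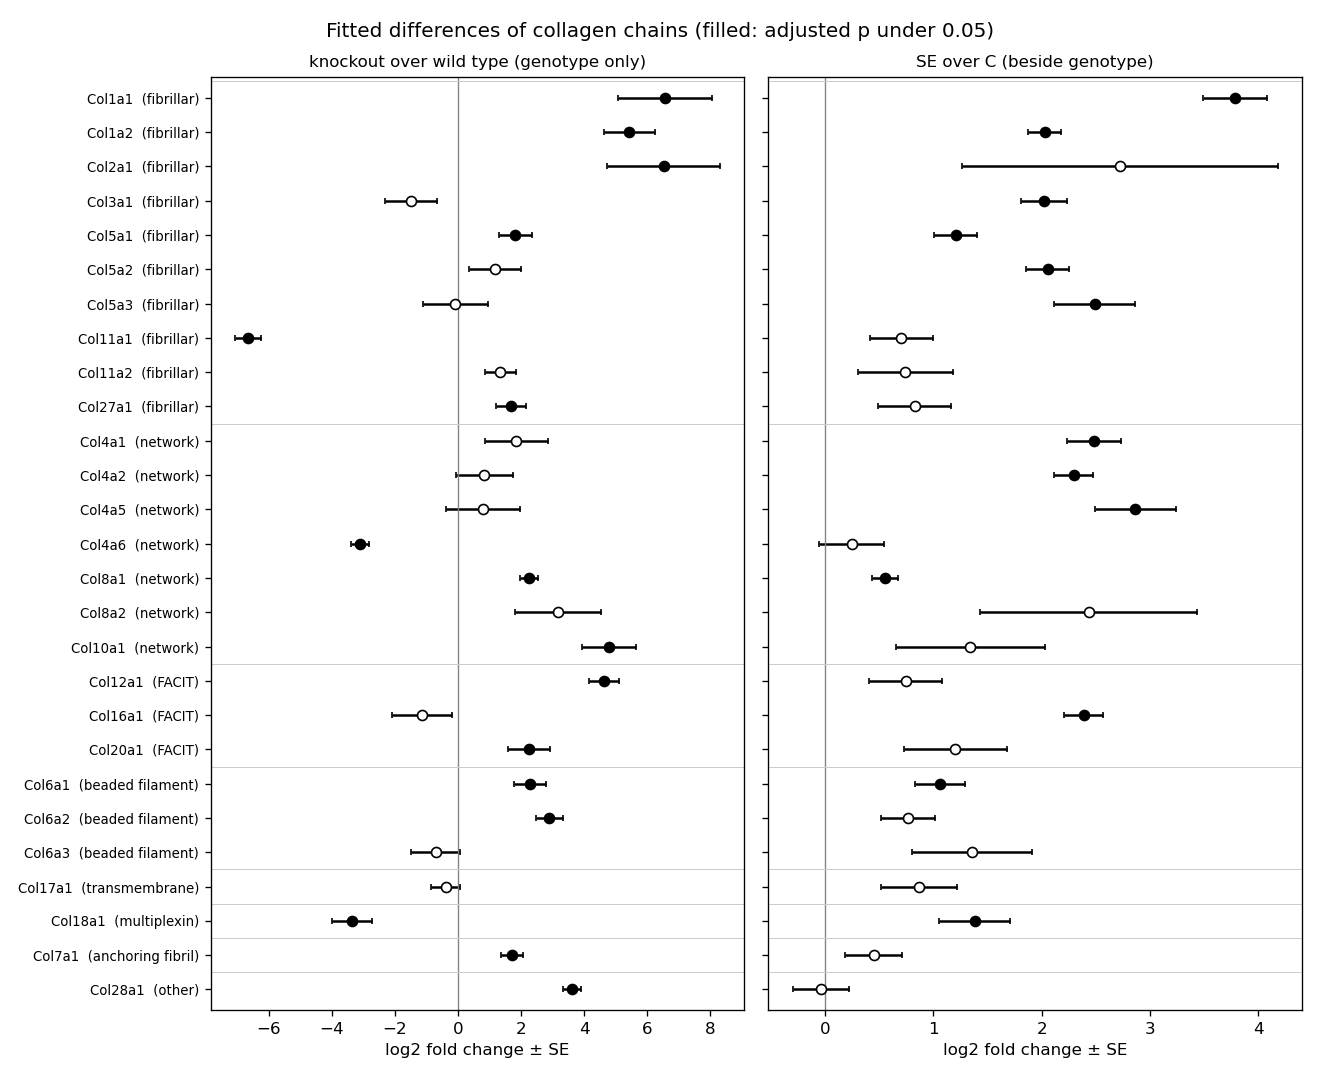
Fitted log2 fold change with its standard error for each collagen chain, knockout over wild type on the left and SE over C on the right, with filled symbols for an adjusted p under 0.05. In the left panel 13 filled symbols lie above 0 and 3 below it, and in the right panel all 13 filled symbols lie above 0.

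The 2 chains of type I collagen, the main fibre of bone and skin, rose in the knockout. Col1a1 (ENSMUSG00000001506, chromosome 11) had normalised counts of 882, 506 and 12333 in knockout C1, C2 and SE, against 5.55 and 56.1 in wild-type C1 and SE. Every knockout library was above both wild-type libraries, and within each genotype SE was the highest. The ratio of group means was 148 and the log2 fold change 6.58 (SE 1.49, limma adjusted p = 0.0166). This ratio was 81.5 without wild-type C1, where the call was lost, 824 without wild-type SE and 22.5 without knockout SE. Col1a2 (ENSMUSG00000029661, chromosome 6), which encodes the partner chain, had 2074, 1869 and 9052 in the knockout C1, C2 and SE libraries, against 40.2 and 141 in wild-type C1 and SE. Its groups did not overlap either, and the fitted log2 fold change was 5.43 (SE 0.82, limma adjusted p = 0.00355). The ratio of means was 47.8, and 30.7, 108 and 21.8 without wild-type C1, wild-type SE and knockout SE, and the call held in all 18 alternatives.

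Type III collagen, which shares fibrils with type I in distensible tissues, was not called. Col3a1 (ENSMUSG00000026043, chromosome 1) had 264, 416 and 1410 in knockout C1, C2 and SE, against 767 and 2933 in wild-type C1 and SE. The groups overlapped, because knockout SE exceeded wild-type C1, and the log2 fold change of -1.48 (SE 0.83) did not pass (adjusted p = 0.211). Compared within the suffixes, the knockout level was 0.444 times the wild-type level among C libraries and 0.481 times among SE libraries. Col3a1 was called lower with the suffix as a term, without knockout SE and without both SE libraries. Its neighbour Col5a2, which lies 24614 bases away on the opposite strand and encodes a chain of the fibril-nucleating type V collagen, had 600, 441 and 2516 in the knockout and 212 and 708 in the wild type. That difference did not pass (log2 fold change 1.17, SE 0.83, adjusted p = 0.318), with ratios of 2.46 among C and 3.55 among SE libraries. Col5a2 was called higher with the suffix as a term (log2 fold change 1.52) and without both SE libraries.

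The promoters of Col1a2 and Col3a1 are shown because these 2 highly read fibrillar genes had genotype fold changes of opposite sign, that of Col3a1 without a call. RefSeq windows on GRCm38.p6 run from 250 bases before the start site to 50 after it, and 23 of the 27 chains matched by symbol (not Col1a1, Col2a1, Col5a2 and Col12a1). Capitals mark 3 motifs searched on both strands. The CCAAT box was searched as CCAAT, which reads ATTGG on the other strand. The GC box was searched as GGGCGG, which reads CCGCCC on the other strand. The TATA box was searched as TATAAA, which reads TTTATA on the other strand. No 2 matches overlap in the printed windows. Of all 32851 promoter windows of this length, 37.4% held a CCAAT box, 35.7% a GC box and 13.6% a TATA box. The Col1a2 window (plus strand, chr6:4505368-4505667) held 2 CCAAT box and 2 GC box matches and a GC content of 61.0%. The Col3a1 window (plus strand, chr1:45311288-45311587) held 1 TATA box match and a GC content of 37.7%.
Col1a2: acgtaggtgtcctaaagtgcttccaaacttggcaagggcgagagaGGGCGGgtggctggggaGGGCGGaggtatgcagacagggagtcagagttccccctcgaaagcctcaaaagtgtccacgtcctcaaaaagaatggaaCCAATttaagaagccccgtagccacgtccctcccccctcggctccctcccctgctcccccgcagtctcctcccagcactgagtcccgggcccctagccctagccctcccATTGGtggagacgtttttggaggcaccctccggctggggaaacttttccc
Col3a1: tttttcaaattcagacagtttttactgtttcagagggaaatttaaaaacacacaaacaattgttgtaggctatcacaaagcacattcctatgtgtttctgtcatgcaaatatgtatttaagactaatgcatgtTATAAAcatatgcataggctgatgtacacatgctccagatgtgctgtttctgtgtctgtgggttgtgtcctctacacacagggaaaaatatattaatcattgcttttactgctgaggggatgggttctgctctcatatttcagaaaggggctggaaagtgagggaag

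The minor fibrillar chains went both ways. Col5a1, another chain of the fibril-nucleating type V collagen, had 289, 224 and 723 in knockout C1, C2 and SE, against 77.1 and 135 in wild-type C1 and SE. Its ratio of means was 3.89 (log2 fold change 1.82, SE 0.53, adjusted p = 0.0386), and 2.42 without knockout SE. The call was lost without either wild-type library and without knockout C1. Col5a3 had 5.27, 13.4 and 46.9 in the knockout and 6.20 and 40.2 in the wild type, with SE highest in each genotype and no call for genotype (adjusted p = 0.963).

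Chains of cartilage fibrils differed sharply and in opposite directions. Col2a1, the main cartilage chain, had 69.5, 2.84 and 415 in knockout C1, C2 and SE, and no read in either wild-type library. With a floor of 3 reads per library the knockout mean was at least 1173-fold higher, and at least 261-fold higher without knockout SE. The log2 fold change was 6.52 (SE 1.79, adjusted p = 0.0320), and the call was lost without either wild-type library and without knockout C1. Col11a1, which nucleates cartilage fibrils with type II, had no read in knockout C1 and C2 and 0.143 in knockout SE (2 reads), against 36.4 and 81.8 in wild-type C1 and SE. The ratio of read rates, wild type over knockout, was 1737 with an exact 95% interval from 480 to 14351, which covers counting error only. Its log2 fold change was -6.66 (SE 0.41, adjusted p = 0.000131), and the wild-type mean was 1237 times the knockout mean, or 762 times without wild-type SE. Without knockout SE no knockout read remained.

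The cartilage gene Sox9 fell in the knockout, which had 13.2, 14.3 and 36.8 in C1, C2 and SE, against 184 and 127 in wild-type C1 and SE. Comp, another cartilage marker, had 5.45, 4.20 and 10.3 in the knockout and 0 and 0.104 in the wild type, and with Col2a1 itself 3 of 5 chondrocyte markers were in the table and summed to 21.3 to 462 in the knockout and to 127 to 184 in the wild type. Col11a2, a further type XI chain, had 0.517, 1.29 and 2.94 in the knockout and 0.243 and 0.207 in the wild type, without overlap and without passing the test (adjusted p = 0.0820). It was called higher with the suffix as a term, without knockout C1 and by DESeq2. Col27a1, a cartilage-associated fibrillar chain, rose to 2.96, 2.88 and 7.95 in knockout C1, C2 and SE, against 0.851 and 1.04 in wild-type C1 and SE. Its ratio of means was 4.87, and 3.09 without knockout SE, and the call was lost without either wild-type library.

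Among network collagens, the chains of ordinary basement membranes overlapped between the genotypes. Col4a1 (chromosome 8) had 188, 343 and 1514 in knockout C1, C2 and SE, against 56.3 and 291 in wild-type C1 and SE. Col4a2, its partner in the same helix, had 89.1, 119 and 589 in the knockout and 51.1 and 207 in the wild type. In each genotype the SE library was the highest for both chains, and neither passed for genotype (adjusted p = 0.199 for Col4a1 and 0.519 for Col4a2). Within the suffixes, the Col4a1 ratio of knockout to wild type was 4.71 among C and 5.21 among SE libraries, and that of Col4a2 was 2.04 and 2.84. Both were called higher with the suffix as a term and without both SE libraries.

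Of the X-linked pair, Col4a6 fell and Col4a5 was not called. Col4a5, which forms the networks of kidney and other specialised basement membranes, had 16.7, 14.0 and 193 in knockout C1, C2 and SE, against 10.5 and 39.5 in wild-type C1 and SE (adjusted p = 0.639). The log2 fold change of 0.80 was -0.41 without knockout SE and -0.14 without wild-type C1. The ratio of knockout to wild type was 1.46 among C and 4.89 among SE libraries, and Col4a5 was called higher with the suffix as a term. Col4a6, a smooth muscle and skin basement membrane chain, had no read in the 3 knockout libraries and 3.04 and 4.77 in wild-type C1 and SE. The knockout mean was at least 24.9-fold lower at a floor of 3 reads per library, between 19.4-fold and 30.7-fold without single libraries (log2 fold change -3.11, SE 0.28, adjusted p = 0.000457). The test of this chain against Col4a5 was not made.

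The promoters of these pairs are shown because each pair lies head to head, and neither member of the chromosome 8 pair was called while 1 member of the X pair was. RefSeq start sites were 21 bases apart for Col4a1 (minus strand, chr8:11312777-11313076) and Col4a2 (plus strand, chr8:11312555-11312854). Those windows overlap by 78 bases, so a match in that stretch is printed in both. Start sites were 1343 bases apart for Col4a5 (plus strand, chrX:141475169-141475468) and Col4a6 (minus strand, chrX:141474027-141474326). GC content was 74.0% and 73.7% in the Col4a1 and Col4a2 windows and 52.7% and 48.3% in those of Col4a5 and Col4a6. Each of the 4 windows held at least 1 GC box match, and Col4a6 alone of these 4 held no CCAAT box match, which says only that those letters are not in this window.
Col4a1: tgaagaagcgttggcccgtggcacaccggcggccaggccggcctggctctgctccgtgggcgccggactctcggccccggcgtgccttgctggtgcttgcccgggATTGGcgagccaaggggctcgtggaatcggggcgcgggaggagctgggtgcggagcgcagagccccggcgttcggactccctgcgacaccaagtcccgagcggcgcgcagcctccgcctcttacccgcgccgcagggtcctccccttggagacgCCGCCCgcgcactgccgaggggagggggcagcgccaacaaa
Col4a2: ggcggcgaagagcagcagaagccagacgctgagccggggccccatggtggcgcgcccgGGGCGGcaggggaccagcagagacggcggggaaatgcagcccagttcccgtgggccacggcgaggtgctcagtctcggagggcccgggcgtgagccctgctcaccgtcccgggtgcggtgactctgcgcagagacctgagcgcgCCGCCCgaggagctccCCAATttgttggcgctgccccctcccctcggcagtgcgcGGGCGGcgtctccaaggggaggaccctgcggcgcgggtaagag
Col4a5: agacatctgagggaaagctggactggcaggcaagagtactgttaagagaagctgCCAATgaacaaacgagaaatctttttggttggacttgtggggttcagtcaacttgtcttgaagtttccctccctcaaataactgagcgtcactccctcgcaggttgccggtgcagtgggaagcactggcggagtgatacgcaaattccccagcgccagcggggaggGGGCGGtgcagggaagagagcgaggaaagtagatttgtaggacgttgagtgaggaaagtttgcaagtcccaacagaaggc
Col4a6: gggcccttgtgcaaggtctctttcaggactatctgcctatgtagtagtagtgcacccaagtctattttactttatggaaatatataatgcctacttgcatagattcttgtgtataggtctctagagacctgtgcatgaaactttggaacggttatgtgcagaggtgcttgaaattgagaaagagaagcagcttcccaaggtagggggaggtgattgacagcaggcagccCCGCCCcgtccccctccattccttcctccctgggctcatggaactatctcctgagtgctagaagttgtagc

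Of the short-chain network collagens, Col8a1 and Col10a1 rose in the knockout. Col8a1, of the hexagonal lattices around vessels and in the eye, had 233, 219 and 314 in knockout C1, C2 and SE, against 42.0 and 66.3 in wild-type C1 and SE. This was a 4.71-fold difference with little spread (log2 fold change 2.24, SE 0.29, adjusted p = 0.00196). Col8a2, the other chain of type VIII, had 2.92, 0.340 and 31.9 in the knockout and no read in the wild type, at least 84.6-fold higher but 11.8-fold or more without knockout SE, and it did not pass (adjusted p = 0.118). It was called higher with the suffix as a term, with a pseudocount of 0.1, without knockout C2 and by DESeq2. Col10a1, the collagen of hypertrophic cartilage, had 21.8, 6.43 and 66.8 in knockout C1, C2 and SE, against 0.324 and 0.259 in wild-type C1 and SE. The ratio of means was 109, or 48.4 without knockout SE (log2 fold change 4.79, SE 0.87, limma adjusted p = 0.00732). Its wild-type mean rests on 13 reads.

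FACIT chains, which decorate fibrils, were split. Col12a1, found on type I fibrils of dense connective tissue, had 76.0, 69.2 and 195 in knockout C1, C2 and SE, against 3.81 and 3.37 in wild-type C1 and SE (log2 fold change 4.63, SE 0.48, adjusted p = 0.000794). The ratio without knockout SE was 20.2. Col20a1 had 1.79, 3.82 and 11.4 in the knockout and 0.446 and 0.622 in the wild type, 10.6-fold higher and 5.25-fold without knockout SE. That call (adjusted p = 0.0397) was lost with a pseudocount of 1 and without wild-type C1, wild-type SE or knockout C2. Col16a1 had 22.9, 25.5 and 157 in the knockout and 50.1 and 203 in the wild type, with overlap and no call (adjusted p = 0.391). It was called lower with the suffix as a term, without knockout SE and without both SE libraries.

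The 3 chains of collagen VI, which assemble into a common unit in muscle and stroma, included 2 that rose and 1 that was not called. Col6a1 had 1037, 1700 and 2542 in knockout C1, C2 and SE, against 222 and 521 in wild-type C1 and SE. It rose 4.74-fold (log2 fold change 2.28, SE 0.51, adjusted p = 0.0153), or 7.94-fold without wild-type SE, and the call was lost without wild-type C1. Col6a2, whose gene lies 85161 bases from Col6a1 on chromosome 10, had 718, 1278 and 1458 in the knockout and 105 and 207 in the wild type. Its log2 fold change was 2.90 (SE 0.42, adjusted p = 0.00318) and its call held in all 18 alternatives. Col6a3, the long chain of the unit, had 36.3, 145 and 257 in the knockout and 140 and 234 in the wild type, with full overlap (log2 fold change -0.71, SE 0.77, adjusted p = 0.520).

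Among the remaining classes, Col18a1, a basement membrane multiplexin whose tail is endostatin, fell. It had 6.16, 11.9 and 17.4 in knockout C1, C2 and SE, against 59.7 and 227 in wild-type C1 and SE. The knockout was 12.1-fold lower (log2 fold change -3.36, SE 0.65, adjusted p = 0.00915), 19.2-fold without wild-type C1 and 5.05-fold without wild-type SE. Its gene lies 326009 bases from Col6a1, which rose. Col7a1, the anchoring fibril chain of skin, had 6.16, 7.49 and 8.10 in the knockout and 1.34 and 2.54 in the wild type, 3.74-fold higher (adjusted p = 0.0106), a call lost without wild-type C1. Col28a1 was the steadiest of the low chains, with 12.7, 9.72 and 11.6 in the knockout and 0.527 and 0.414 in the wild type, and it rose 24.1-fold (log2 fold change 3.61, SE 0.29, adjusted p = 0.000331). The transmembrane chain Col17a1 had 0.611, 0.227 and 1.58 in the knockout and 0.851 and 1.29 in the wild type and was not called (adjusted p = 0.554).

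Ratios between chains, taken per kilobase of exon within a library, described how the mixture differed, and none was tested. Col3a1 stood at 0.161, 0.282 and 0.197 times Col1a2 in knockout C1, C2 and SE, against 24.1 and 26.4 times in wild-type C1 and SE. All 3 knockout libraries were thus below 1 and both wild-type libraries far above it, with SE and C alike in each genotype. Col5a2 stood at 2.33, 1.09 and 1.83 times Col3a1 in the knockout and at 0.282 and 0.247 times in the wild type. Col6a3 stood at 0.0351, 0.0790 and 0.123 times Col6a2 in the knockout and at 0.929 and 0.788 times in the wild type. Col6a1 to Col6a2 lay nearer together, at 2.74, 2.53 and 3.31 in the knockout and 4.01 and 4.79 in the wild type.

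The type I chains combine in a fixed proportion in the common heterotrimer. Their ratios of Col1a1 to Col1a2 moved with the suffix and, within a suffix, with genotype. These were 0.806, 0.513 and 2.58 in knockout C1, C2 and SE and 0.261 and 0.755 in wild-type C1 and SE. SE was the highest within each genotype, and within each suffix the knockout was above the wild type. Knockout C2 lay below wild-type SE. Col4a1 to Col4a2 stood at 1.87, 2.55 and 2.28 in the knockout and at 0.978 and 1.24 in the wild type, without overlap.

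**Figure D4:**
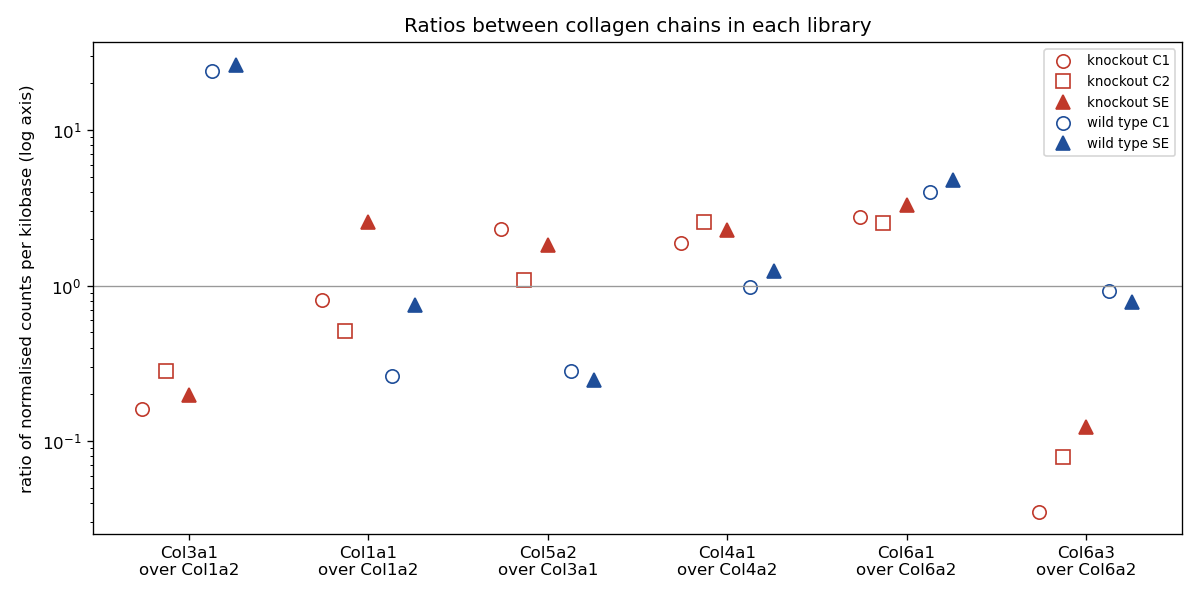
Ratio of 1 chain to another in normalised counts per kilobase of exon (log axis) in each of the 3 knockout and 2 wild-type libraries. Col3a1 over Col1a2 lies between 0.161 and 0.282 in the knockout and between 24.1 and 26.4 in the wild type.

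The comparison of suffixes was read without a stated meaning for SE or C. Within each genotype, the SE libraries carried more collagen transcript than the C libraries. In a model with genotype and suffix, 13 of 27 chains were higher in SE and 0 were lower (limma, adjusted p under 0.05, with 20 chains at an unadjusted p under 0.05), against 17.4% of all tested genes higher and 15.5% lower. On recovered reads edgeR called 15 of 27 chains and 3942 of 12484 genes, and DESeq2 called 15 of 24 chains and 4716 of 11515 genes. The median log2 fold change of SE over C was 1.34 over the collagens and -0.04 over all genes tested. SE was above every C library of its genotype in both genotypes for 20 chains, where 33.1% of all tested genes were, and below every C library in both for 0 chains, where 37.0% were. Within the knockout alone SE was above C1 and C2 for 25 chains (41.8% of all tested genes), and within the wild type above C1 for 21 (44.6%). SE reached at least 2 times the C level for 19 chains in the knockout (12.6% of all tested genes), for 12 in the wild type (8.19%) and for 9 in both (5.98%), with 0.5 added to each value. The higher chains were 6 of 10 fibrillar (Col1a1, Col1a2, Col3a1, Col5a1, Col5a2 and Col5a3), 4 of 7 network (Col4a1, Col4a2, Col4a5 and Col8a1), Col16a1, Col6a1 and Col18a1. Without knockout SE the estimate came from wild-type SE and C1 alone, and limma called 0 of 24 chains and 0 of 12296 genes (12 chains and 1889 genes at an unadjusted p under 0.05). As no gene passed in that fit, its lost calls say nothing of the collagens in particular. The log2 fold changes of the 13 chains were all above 0 in it, between 0.65 and 3.23, against 0.55 to 3.79 with all libraries. The 13 chains were chosen by a fit that held the same wild-type libraries, so their signs here are no independent support. Among them Col1a1 was at 3.23, Col3a1 at 1.93 and Col4a1 at 2.36, while Col4a5 was at 1.86 in place of 2.86. Without knockout C1 14 of 26 tested chains were called, where 30.7% of all tested genes were. Without knockout C2 16 of 26 were, where 41.3% of all tested genes were. Col6a1, Col8a1 and Col18a1 were not called where a wild-type library was left out. Depth moved with the suffix, as SE had 13605555 reads in the knockout and 17986301 in the wild type against 21991615 or more in the C libraries, and its part was not tested.

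Col1a1 had the largest SE difference among these calls, at 3.79 on the log2 scale (SE 0.30, limma adjusted p = 0.00316). Its normalised count in SE was 17.8 times the C mean in the knockout and 10.1 times C1 in the wild type. Col4a5 followed with 2.86 (SE 0.37, adjusted p = 0.00511), at 12.6 times in the knockout and 3.76 times in the wild type. For Col3a1 the ratios of SE to C were close in both genotypes, 4.15 in the knockout and 3.83 in the wild type (log2 fold change 2.02, SE 0.21, adjusted p = 0.00368). The same held for Col4a1, at 5.70 in the knockout and 5.16 in the wild type, and Col4a2 stood at 5.66 and 4.06. Col18a1, which was lower in the knockout, was also higher in SE, by 1.93 times in the knockout and 3.80 times in the wild type. Col28a1 did not differ by suffix beyond its error (log2 fold change -0.04, SE 0.26, adjusted p = 0.922).

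Several chains had a higher SE value in the knockout and not in the wild type. Col12a1 in SE stood at 2.68 times the C mean in the knockout and at 0.884 times C1 in the wild type, and Col10a1 at 4.73 and 0.799 times. Col2a1 and Col8a2 had no wild-type read with which to compare. An interaction term had spread only from knockout C1 and C2 before limma pooled variances over all genes. It tested the difference between the genotypes in the SE effect. It was called for 0 of 27 chains and 0 of 12484 genes by limma, with 3 chains and 327 genes at an unadjusted p under 0.05. edgeR called 0 genes and DESeq2 called 0 chains and 1 gene. The 3 chains were Col12a1, Col4a5 and Col27a1, with interaction terms of 1.58, 1.75 and 1.12 on the log2 scale (adjusted p = 0.9999 for each).

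**Figure D5:**
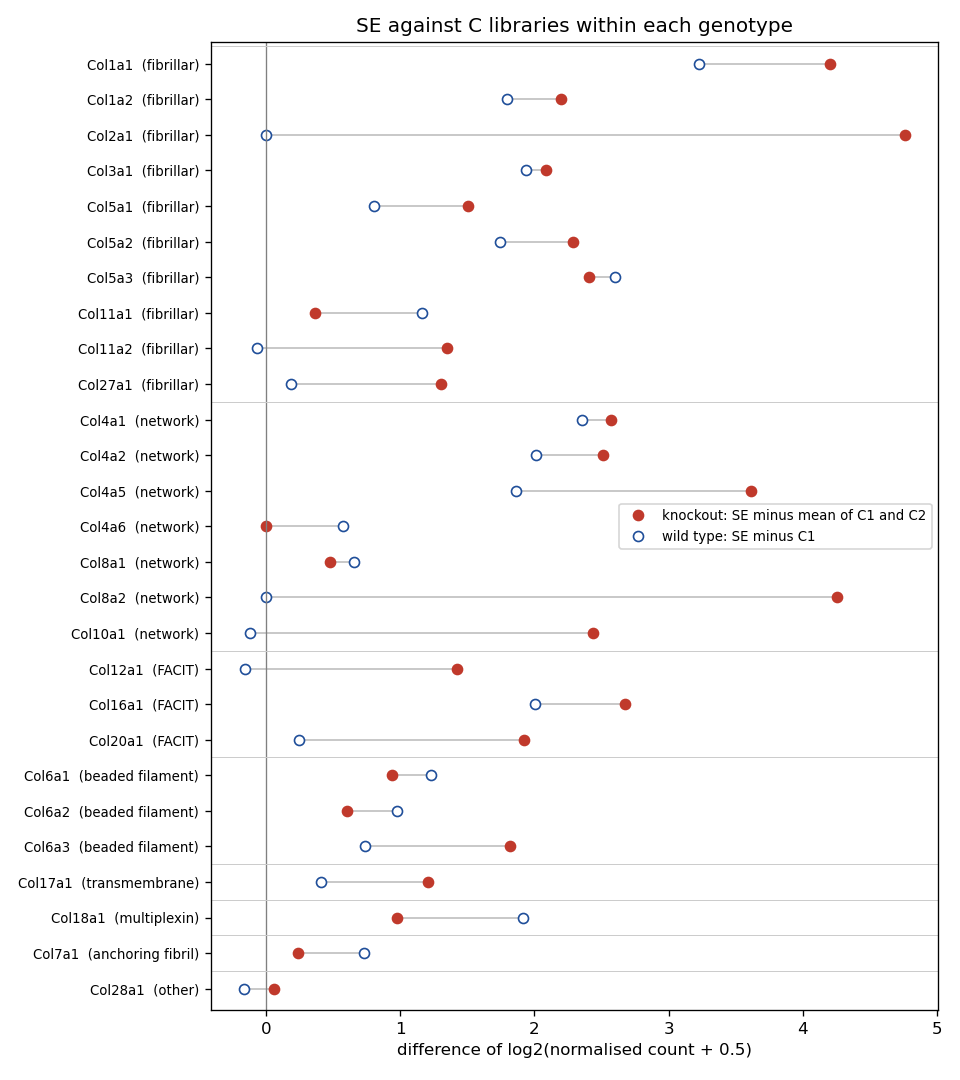
Difference of log2(normalised count + 0.5) between SE and C libraries for each collagen chain, filled for the knockout (SE minus the mean of C1 and C2) and open for the wild type (SE minus C1). Most symbols lie right of 0 in both genotypes, and Col2a1, Col8a2 and Col10a1 have the widest gaps between them.

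Genes that make, export and handle collagen were taken as 8 lists of 95 genes, of which 76 were tested. Of these, 21 rose and 9 fell in the knockout, with a median log2 fold change of 0.22, where 17.2% of all tested genes were higher and 17.1% lower. The share called was 39.5% of these genes, against 34.3% of all tested genes. Among 13 genes of chain hydroxylation and glycosylation 4 rose and 1 fell, a share of 38.5% that is also close to it. P4ha3, a prolyl hydroxylase subunit that stabilises the helix, had 69.3, 34.5 and 54.2 in knockout C1, C2 and SE, against 1.86 and 2.33 in wild-type C1 and SE (log2 fold change 4.30, adjusted p = 0.000394). P3h3, a prolyl 3-hydroxylase, had 118, 114 and 178 in the knockout and 21.0 and 32.5 in the wild type (log2 fold change 2.33). Plod2, the lysyl hydroxylase of telopeptide crosslinks, was the member that fell, at 32.0, 27.9 and 32.4 in the knockout and 129 and 141 in the wild type (log2 fold change -2.12).

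Of 11 folding and export genes 3 rose and 1 fell, a share of 36.4% that is close to the 34.3% of all tested genes. Hspa5, the main chaperone of the endoplasmic reticulum, had 1671, 1395 and 1206 in the knockout and 4792 and 3959 in the wild type (log2 fold change -1.63). Fkbp14, a collagen-binding prolyl isomerase, had 72.1, 67.5 and 69.1 in the knockout and 34.5 and 35.3 in the wild type (log2 fold change 0.98), and Mia2, of the export machinery for large cargo, had a log2 fold change of 0.76. Of 11 genes for propeptide removal and crosslinking 5 rose and 0 fell, a share of 45.5%. Adamts2, the procollagen N-proteinase, had 136, 208 and 280 in knockout C1, C2 and SE, against 5.03 and 11.7 in wild-type C1 and SE (log2 fold change 4.61, adjusted p = 0.000593). Loxl3, a lysyl oxidase of crosslinking, had a log2 fold change of 1.38 and Tgm2, a transglutaminase, one of 1.86.

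Of 6 tested collagen-binding receptor genes 3 rose and 0 fell, where 34.3% of all tested genes were called, 17.2% higher and 17.1% lower. The receptor, degradation and fibril-associated lists hold few genes, and none of them was tested against these shares. Itga1, of the integrin for type IV collagen, had 19.9, 14.8 and 42.1 in the knockout and 1.54 and 1.86 in the wild type (log2 fold change 3.43). Itga11, of the integrin for fibrillar collagen, had 44.6, 17.3 and 186 in the knockout and 0.811 and 4.40 in the wild type (log2 fold change 4.39). Ddr1, a receptor kinase for collagen, had a log2 fold change of 1.38. Of 4 degradation genes 1 rose, Ctsk, a collagen-cleaving cathepsin, with 136, 228 and 135 in the knockout and 3.53 and 2.12 in the wild type, and 0 fell. Of 8 fibril-associated genes 2 rose and 2 fell. Bgn, the proteoglycan biglycan, had a log2 fold change of 2.18, whereas Dcn, decorin, had 1 read in the knockout libraries, and Tnxb, a fibril-spacing tenascin, had a log2 fold change of -3.61.

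Of 11 tested basement membrane partners, 0 rose and 1 fell in the knockout (limma), a share of 9.09%, against 34.3% of all tested genes. The member that fell was Lama4, a laminin chain of vessels and muscle (log2 fold change -2.44). Nid2, a nidogen, with the next smallest p-value, was not called (limma adjusted p = 0.0784). For SE over C, 9 of the 11 were higher and 0 lower (limma), where 17.4% of all tested genes were higher and 15.5% lower. This was not particular to the list. Among 11 genes for propeptide removal and crosslinking 7 were higher in SE and 2 lower, and among all 76 tested partner genes 27 and 7. Pxdn, the peroxidase that crosslinks collagen IV, was named after its values were seen and had 15.5, 19.3 and 129 in knockout C1, C2 and SE, against 17.7 and 79.8 in wild-type C1 and SE (SE over C log2 fold change 2.56).

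Transcription factors known to act on collagen genes went both ways, with 3 of 12 higher and 4 lower in the knockout. The share called was 58.3%, against 34.3% of all tested genes. Scx, a tendon factor that acts on type I genes, had 3.997, 3.44 and 3.51 in the knockout and 40.6 and 39.004 in the wild type (log2 fold change -3.28). Sox5, a partner of Sox9 at cartilage genes, had 1.88, 3.78 and 1.36 in the knockout and 59.5 and 49.1 in the wild type. Creb3l1, a membrane-bound factor that acts on Col1a1 in bone, rose to 116, 85.7 and 137 in knockout C1, C2 and SE, against 10.8 and 16.1 in wild-type C1 and SE (log2 fold change 3.02). Osteoblast markers (3 of 5 in the table) summed to 22.7 to 115 in the knockout and to 7.56 to 12.7 in the wild type, with Alpl at most 0.162 and Sp7 at no read in the wild type and Dmp1 at most 0.0717 in the knockout. Their part in the type I difference was not tested.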

How the data were processed

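Messenger RNA of mouse mesenchymal stem cells, in 3 knockout and 2 wild-type libraries, was sequenced with a stranded kit as single-end 75-base reads, per the labels' protocols. The submitters' processing notes name STAR 2.5, featureCounts 1.5.2 and edgeR in no stated role, and the build, annotation and use of strand are not given in the sources used here. The deposited signal per gene equals its read count divided by a library size, a step the authors took. All values were whole multiples of 1 read within 0.02 of a read (100%), and those reads were recovered. Columns carry a genotype and a suffix, but not the replicate numbers found in titles.

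The main test was limma 3.58.1 (eBayes with a trend, R 4.3.3) on log2 of the value plus 0.5, with Benjamini-Hochberg adjustment at 0.05 over the 12484 genes that reached a value of 1 in 2 or more libraries. Log2 fold changes on this scale understate changes of low genes, and folds are ratios of group means. The genotype fit had 3 residual degrees of freedom, the fit with suffix 2 and the interaction 1. Exon lengths and gene distances were read from GENCODE M21 (GRCm38), matched on Ensembl identifiers. Every collagen was named, and up to 3 genes of each other list by smallest p-value for genotype, in addition to those given for a cell type check. A gene that this rule names is not reported here. A planned search for genes patterned like Col1a1 was not made, since 5 libraries are too few for correlations. Members and lists were chosen with earlier results of these data known. Alternatives were other scalings, a pseudocount of 0.1 or 1, dropping the filter or raising it to 5, other variance models, edgeR 4.0.16 (quasi-likelihood) and DESeq2 1.42.0 on recovered reads, the suffix as a term, and left-out libraries. The fits were also run on simulated counts with a fixed spread and few changed genes. These data differ far more widely, so that run says nothing of the calls here. Overlapping and antisense genes and near-identical copies were not marked.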

Additional observations from a re-analysis of the deposited data

How the results depend on the processing

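For knockout over wild type, 420 of 465 refits of single collagen chains kept direction and side of the threshold, 15 lost a call, 20 gained one and 10 changed sign. No called chain changed sign. A chain was refitted only where it reached the filter on low values, so Col11a1 had 15 refits and Col4a6 14, against 18 for most chains. Without a wild-type library neither was tested, so a lost call could not show. Counts of calls also follow the number of chains tested and the share of all genes called. With the filter at 5, 21 chains were tested, and 3344 of 10535 genes were called. With the suffix as a term, 60.6% of all tested genes were called. The 16 collagen calls stood between 13 and 24 over the other settings and between 7 and 18 without single libraries, and the lowest was without wild-type C1. The calls among partner genes, 30, were 52 with the suffix as a term and 17 to 34 without single libraries. Sign changes were limited to 4 uncalled chains. Col5a3 (log2 fold change -0.08) was at 0.33 with the suffix as a term and 0.42 without both SE libraries, and at -1.38 to 1.22 without single libraries. Without single libraries Col4a5 ran from -0.41 to 1.73, Col4a2 from -0.17 to 1.84 and Col6a3 from -1.31 to 0.094.

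For SE over C, 366 of 413 refits kept direction and side, 21 lost a call, 21 gained one and 5 changed sign. Refits in which a chain was filtered out or got no adjusted p were not counted. The 13 calls stood between 11 and 15 over the other settings and between 0 and 16 without single libraries. Uncalled Col28a1 ran from -0.17 to 0.058, Col12a1 from -0.16 to 1.42 and Col10a1 from -0.12 to 2.44 without single libraries. All 32 refits of the 3 interaction terms kept side and direction. No paired analysis was possible because the columns carry no replicate number of the titles, and no label says that a suffix pairs libraries across genotypes. The suffix was fitted as a term instead, with 24 of 27 chains called, where 60.6% of all tested genes were called. Depth limits Col4a6, Col11a1, Col2a1 and Col8a2, where a group has 0 to 2 reads. Few wild-type reads also lie under the ratios of Col10a1 (13), Col28a1 (21) and Col20a1 (23).

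Over all genes tested, the 4279 calls for genotype were 7568 with the suffix as a term, 1728 without wild-type C1, 1676 without wild-type SE and 2741 without knockout C2. The 4098 calls for SE over C were 2521 without a variance trend, 1620 without wild-type C1, 1587 without wild-type SE and 0 without knockout SE.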
